A study of Mus musculus with 17 samples.

Results

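Chemokines are small secreted proteins that guide leukocytes, and they act through receptors coupled to G proteins on those cells. CC and CXC chemokines are named for the spacing of their first cysteines, and the atypical receptors (ACKRs) bind chemokines and remove or present them without G-protein signalling. In the liver, hepatocytes, sinusoidal endothelium, stellate cells and Kupffer cells make chemokines, and neutrophils, monocytes and lymphocytes carry most of the receptors. The gene family was taken by symbol: every gene named Ccl, Cxcl, Cx3cl, Xcl, Ccr, Cxcr, Cx3cr, Xcr or Ackr with a number. That gave 60 of the 48440 genes in the deposited table, namely 23 CC ligands, 13 CXC ligands, 2 other ligands, 18 receptors and 4 atypical receptors.

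The series measured polyadenylated RNA in mouse liver in 3 groups. These were B6 mice carrying a miR-29 transgene at 2 months of age (TG_2mon, 6 libraries), wild-type B6 mice at 2 years (WT_2year, 5 libraries) and wild-type B6 mice at 2 months (WT_2mon, 6 libraries). The labels name neither the promoter of the transgene, nor the miR-29 member it encodes, nor the cells that express it. They also do not say that each library came from its own animal, so the p-values below measure the spread between libraries. Batch A (10 libraries, TruSeq kit) held 5 males and 5 females, and batch B (7 libraries, NEBNext kit) held males alone. The comparisons ask which of these genes differ with the transgene, which differ with age, and where the transgenic livers differ from the old ones. Values are the authors' normalized counts, and the sequencing depth behind them is unknown. In bulk RNA, fewer cells of a type and less RNA per cell cannot be told apart.

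Of the 60 genes, 33 averaged at least 10 normalized counts over the 17 libraries and entered the test: 9 CC ligands, 9 CXC ligands, Cx3cl1, 10 receptors and all 4 atypical receptors. The other 27 did not, and the highest value any of them reached was 65.5 (Ccl7, in WT_2year library 5). Ccl21b, Ccl26, Ccl27b and Cxcl3 were listed at 0 in every library. Ccl21b and Ccl27b are near-identical copies of Ccl21a and Ccl27a, so the counts of those pairs are uncertain. Among the 33, Cxcr2 and Ccr1 averaged under 10 in WT_2mon, Ccr7, Cxcr6 and Xcr1 did so in TG_2mon, and Cxcl2 did so in both wild-type groups. Those 6 genes entered through the groups in which they were higher. Exons of Cxcl10, Ccl25 and Cxcl11 overlap Art3, Elavl1 and Gm2673 on the other strand and those of Ackr1 overlap Cadm3 on the same strand, so the counts of these genes are uncertain too.

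Per kilobase of exon, the scale on which levels of different genes can be set side by side, the gene with the highest group mean differed between groups. In TG_2mon livers Cxcl1 led at 1829.8, followed by Ccl9 at 1065.3 and Cxcl12 at 609.0. In WT_2year livers Cxcl12 led at 934.8, followed by Ccl9 at 851.6 and Cxcl1 at 734.6. That place of Cxcl1 rested on WT_2year library 3, at 5958.6 normalized counts, where the other WT_2year libraries lay between 63 and 444.6. In TG_2mon livers its normalized counts ran from 124.2 to 8145.5. In WT_2mon livers Ccl9 was at 883.2 and Cxcl12 at 775.6, with Cxcl1 at 67.9. No test of these orders was made. Ccl9 and Ccl6 are mouse CC ligands made by macrophages and other myeloid cells. CXCL12 is the constitutive ligand of CXCR4.

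The seed of a microRNA, its bases 2 to 8, pairs with matching sites in the 3′ UTRs of messages it lowers. The mature sequences of the miR-29 family are shown with the seed in capitals, because all 3 members share it and any of them could be the one over-expressed (RefSeq, GRCm38.p6).
mmu-miR-29a-3p: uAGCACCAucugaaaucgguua
mmu-miR-29b-3p: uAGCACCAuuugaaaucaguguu
mmu-miR-29c-3p: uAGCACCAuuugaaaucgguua
The deposited table lists the 4 miR-29 precursor genes at 0 in every library, so the transgene itself could not be checked in these polyadenylated libraries.

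The match to that seed is TGGTGCT on the sense strand, and 16.8% of the 12971 tested genes with a 3′ UTR held it. Of the tested genes of the family reported here, the 3′ UTRs of Cxcl9 and Ccr2 held it, once in each. The sites are printed with the match in capitals (GRCm38, chr5:92323286-92323314 on the minus strand for Cxcl9 and chr9:124109203-124109231 on the plus strand for Ccr2).
Cxcl9 site: tgtctcagagaTGGTGCTaatggttttgg
Ccr2 site: ttgtatataccTGGTGCTtgatggagaag
A match is a description of these letters and does not show that the site is used. Neither Cxcl9 nor Ccr2 passed the test in any comparison, and none of the 5 genes that did pass holds the match. Ccr9, Ccr3 and Ccl28, which did not enter the test, hold it as well. The authors' deposited table called Cxcl9 and Ccr9 lower in TG_2mon than in WT_2mon and did not call Ccr2 or Ccl28.

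In transgenic against 2-month-old wild-type liver, 5 of the 33 genes passed the test (15.2%), where 6.71% of all 14588 genes tested did. Cxcr2, Ccr1, Cxcr4 and Cxcl1 rose, which is 12.1% of the 33 against 2.89% of all genes for rises. Of these, Cxcr2 and Ccr1 averaged under 10 in WT_2mon and entered the test through the groups in which they were higher. Cxcl14 fell, which is 3.03% against 3.83% for falls. At an unadjusted p under 0.05 the counts were 13 of 33 (39.4%) against 21.2% of all genes. Those 13 include Ccr7 and Cxcr6, which averaged under 10 in TG_2mon and entered the test through the wild-type groups. Of all called genes 43% were higher, and that share was 56.1% once libraries were rescaled to equal totals and 53.1% with equal upper quartiles, while these 5 genes stayed called in their direction under both.

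**Figure D1:**
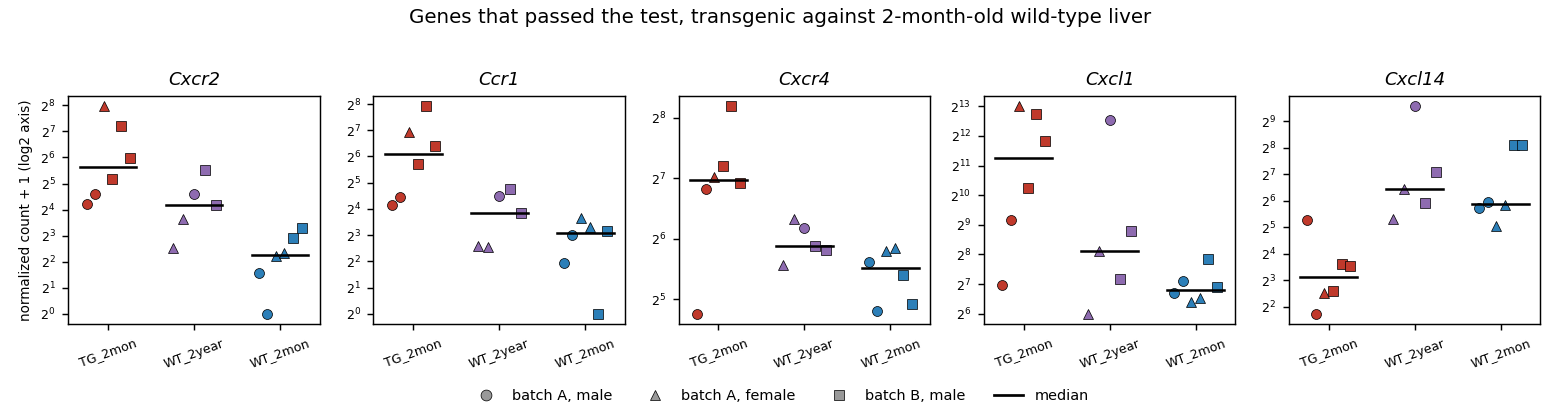
Normalized count plus 1 on a log2 axis for the 5 genes that passed the test of transgenic against 2-month-old wild-type liver, 1 point per library, with the marker giving batch and sex and the black line the median. The 6 TG_2mon points of Cxcr2 and of Ccr1 lie above all 6 WT_2mon points, Cxcr4 and Cxcl1 overlap through 1 low TG_2mon library, and for Cxcl14 the TG_2mon median sits lowest, with 1 library at 38.2.

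2 receptors of neutrophils and other myeloid cells had the smallest p among the rises. Cxcr2 (chr1:74153989-74161246), the receptor through which neutrophils follow CXCL1 and CXCL2, had its lowest, median and highest values at 17.4, 48.9 and 247.5 in TG_2mon livers. It was at 4.76, 11.4, 23.1, 45.4 and 16.9 in the 5 WT_2year livers and was listed at 0, 3.81 and 8.69 (lowest, median, highest) in WT_2mon livers. Every TG_2mon library was above every WT_2mon library, and 4 of the 5 WT_2year libraries were too. The fitted log2 fold change was 3.72 ± 0.62 (SE) for TG_2mon against WT_2mon, with an adjusted p of 0.00148 in limma. WT_2year against WT_2mon gave 1.86 ± 0.64, which did not pass (adjusted p = 0.45), and TG_2mon against WT_2year gave 1.86 ± 0.65 (adjusted p = 0.166).

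Ccr1 (chr9:123962124-123968692), which neutrophils, monocytes and macrophages carry and which binds CCL3, CCL5, CCL6 and CCL9, was at 16.9, 66.9 and 239.2 (lowest, median, highest) in TG_2mon livers. The WT_2year livers were at 5.01, 4.8, 21.7, 25.8 and 13.2, and the WT_2mon livers at 0, 7.41 and 11.7. The TG_2mon and WT_2mon groups did not overlap, while the 2 lowest TG_2mon libraries lay within the WT_2year range. The log2 fold change was 3.41 ± 0.73 for TG_2mon against WT_2mon (adjusted p = 0.00872). It was 1.04 ± 0.76 for WT_2year against WT_2mon (adjusted p = 0.67) and 2.37 ± 0.77 for TG_2mon against WT_2year (adjusted p = 0.124). Cxcr2 and Ccr1 were the only genes of the family whose TG_2mon values all lay above the WT_2mon values, and 1.11% of all genes tested did so. They had entered the test through the groups in which they were higher. Both were called in each of the 12 fits that left out a library of the 2 groups.

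Cxcr4 (chr1:128588199-128592293), the receptor of CXCL12 that holds leukocytes in the bone marrow, was at 26.1, 124.9 and 291.1 (lowest, median, highest) in TG_2mon livers. It was at 46.5, 78.9, 71.1, 58.2 and 55.2 in WT_2year livers and at 27, 44.7 and 56.4 in WT_2mon livers. In 5 of the 6 TG_2mon libraries it stood above every WT_2mon and WT_2year library, and TG_2mon library 1 was below them all. The log2 fold change was 1.43 ± 0.40 for TG_2mon against WT_2mon (adjusted p = 0.0413), and it did not pass for WT_2year against WT_2mon, at 0.47 ± 0.42 (adjusted p = 0.721). The call was lost in 10 of the 12 fits that left out 1 library and was kept without TG_2mon library 1 or WT_2mon library 1 (log2 fold change 1.21 to 1.84, adjusted p up to 0.112).

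Among the ligands, Cxcl1 and Cxcl2 are the mouse ligands of CXCR2. Cxcl1 (chr5:90891241-90893115) was at 124.2, 2422.5 and 8145.5 (lowest, median, highest) in TG_2mon livers. It was at 63, 277.9, 5958.6, 142.5 and 444.6 in WT_2year livers and at 82.6, 111.2 and 228.6 in WT_2mon livers. Except for library 1, every TG_2mon library stood above the WT_2mon range, and so did 3 of the 5 WT_2year libraries, with library 3 far above the other 4. The log2 fold change was 3.62 ± 1.04 for TG_2mon against WT_2mon (adjusted p = 0.0456) and 1.57 ± 1.08 for WT_2year against WT_2mon (adjusted p = 0.656). Cxcl1 stayed called in 1 of the 12 fits that left out a library, the one without TG_2mon library 1, and its log2 fold change ran from 2.72 to 4.46, with the highest adjusted p, 0.166, without TG_2mon library 3. Of the values behind Cxcl1, libraries 3 and 5 of TG_2mon and library 3 of WT_2year exceeded the rest. TG_2mon library 3 was the only female of its group, so sex within TG_2mon cannot be told apart from that library.

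Cxcl2 was far lower, at 0, 5.37 and 105.2 (lowest, median, highest) in TG_2mon livers. It was at 4.65, 10.8, 8.85, 5.27 and 19.5 in WT_2year livers and at 0, 2.26 and 6.97 in WT_2mon livers. The high values in TG_2mon came from libraries 2 and 3, at 21.1 and 105.2, and the groups overlapped. Neither comparison with WT_2mon passed, at 1.41 ± 0.95 for TG_2mon (adjusted p = 0.436) and 1.73 ± 0.99 for WT_2year (adjusted p = 0.612). Cxcl5, another ligand of CXCR2, did not enter the test and reached at most 8.23.

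The promoter of Cxcl1 is printed because Cxcl1 had the widest range of any of the 4 genes that rose, and because the promoters of Cxcl2 and Cxcl3 beside it on chromosome 5 carry the same 10 letters (RefSeq, GRCm38.p6, chr5:90890995-90891294, plus strand, from 250 bases before the start to 50 after). Capitals mark matches on either strand to GGGNNTTNCC, a pattern of the kind NF-kappaB binds.
Cxcl1 promoter: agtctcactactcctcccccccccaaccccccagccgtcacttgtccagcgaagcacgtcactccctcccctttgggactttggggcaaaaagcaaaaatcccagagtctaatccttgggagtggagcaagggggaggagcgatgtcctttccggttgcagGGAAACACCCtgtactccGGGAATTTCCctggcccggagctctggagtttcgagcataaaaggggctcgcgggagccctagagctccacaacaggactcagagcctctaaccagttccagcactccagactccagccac
The match GGGAATTTCC began 71 bases before the start in Cxcl1, 97 before it in Cxcl2 and 73 before it in Cxcl3. Over the family, 10 of the 52 promoter windows found for 45 genes held a match (19.2%), against 4.79% of all 32851 promoter windows of that length. The matches lay in the promoters of Ccl9, Ccl19, Ccl20, Ccr3, Ccr6, Cxcl1, Cxcl2, Cxcl3, Cxcl9 and Cxcl10. Ccl20, Ccr3, Ccr6 and Cxcl3 did not enter the test. Of the others, Cxcl1 was the one that passed the test of TG_2mon against WT_2mon.

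Cxcl14 (chr13:56288643-56296551), a chemokine that epithelia express at rest, was the single gene of the 33 that fell. It was at 2.35, 7.89 and 38.2 (lowest, median, highest) in TG_2mon livers, at 38.8, 85.8, 756.9, 59.2 and 135.9 in WT_2year livers and at 32.2, 58.9 and 275.4 in WT_2mon livers. All 6 TG_2mon libraries were below all 5 WT_2year libraries, and against WT_2mon the 2 groups overlapped through TG_2mon library 1 alone. The log2 fold change fell by 3.47 ± 0.68 for TG_2mon against WT_2mon (adjusted p = 0.0047) and by 3.97 ± 0.72 for TG_2mon against WT_2year (adjusted p = 0.00622). WT_2year against WT_2mon gave 0.50 ± 0.71 (adjusted p = 0.824). Both calls held in every fit that left out 1 library. Cholangiocytes, the epithelium of the bile ducts, were followed through 7 markers in the test, of which Spp1, or osteopontin, fell in TG_2mon against WT_2mon (-1.21 ± 0.33, adjusted p = 0.0372) and none rose. The 7 markers had a median log2 fold change of 0.04 in that comparison. The summed level of all 11 bile duct markers ran from 1047.4 to 1968.6 in TG_2mon livers, from 1114.8 to 2360.1 in WT_2year livers and from 1866.3 to 3941.1 in WT_2mon livers. Spp1 was a large part of those sums, with means of 970.4, 1296.5 and 2175.3 in the same group order. The sums therefore mostly follow that 1 gene. The part of cholangiocytes in the values of Cxcl14 was not tested.

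The Cxcl14 promoter is shown as that of the gene that fell (RefSeq, GRCm38.p6, chr13:56296502-56296801, minus strand). Its capitals mark the one match to TTTCNNTTTC, a pattern of the kind interferon regulatory factors bind, read on the opposite strand.
Cxcl14 promoter: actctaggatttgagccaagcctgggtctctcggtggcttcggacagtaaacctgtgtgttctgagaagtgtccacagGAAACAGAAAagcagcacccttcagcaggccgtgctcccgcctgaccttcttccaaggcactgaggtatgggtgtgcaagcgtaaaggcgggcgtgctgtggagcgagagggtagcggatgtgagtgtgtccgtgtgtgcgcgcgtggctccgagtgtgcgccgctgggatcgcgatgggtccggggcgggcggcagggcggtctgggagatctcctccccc
That pattern was in 3 of the 52 promoter windows of the family (5.77%: Ccl19, Cxcl10 and Cxcl14) and in 3.44% of all windows. GGGNNTTNCC was not in the Cxcl14 window.

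The 2 batches were also fitted alone. In batch A the log2 fold changes of TG_2mon against WT_2mon were 4.26 for Cxcr2 (adjusted p = 0.0427), 2.32 for Ccr1 (0.138), 0.78 for Cxcr4 (0.45), 2.96 for Cxcl1 (0.36) and -2.71 for Cxcl14 (0.147, all adjusted p in limma). In batch B they were 3.03 for Cxcr2 (adjusted p = 0.0804), 5.09 for Ccr1 (0.058), 2.28 for Cxcr4 (0.0596), 4.23 for Cxcl1 (0.0443) and -4.85 for Cxcl14 (0.0169). All 5 genes kept their direction in both batches, with Cxcr2 alone passing in batch A and Cxcl1 and Cxcl14 in batch B. In males of both batches, Cxcr2, Ccr1 and Cxcl14 passed, and Cxcr4 (1.54, adjusted p = 0.109) and Cxcl1 (2.99, adjusted p = 0.161) did not. For TG_2mon against WT_2year, Cxcl14 gave -4.42 in batch A (adjusted p = 0.0868) and -3.25 in batch B (adjusted p = 0.0885).

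Markers of neutrophils also rose between the groups in which Cxcr2, Ccr1 and Cxcl1 did. Of 16 neutrophil markers in the test, 13 rose in TG_2mon against WT_2mon and none fell, with a median log2 fold change of 4.93. Among them were Mmp8, a collagenase of neutrophil granules (6.03 ± 0.90, adjusted p = 0.00061), Stfa2l1, a stefin (5.09 ± 0.78, adjusted p = 0.000727), and S100a8, a subunit of calprotectin (5.14 ± 0.82, adjusted p = 0.00104). The summed level of all 17 markers ran from 11093.4 to 136779.6 in TG_2mon livers, from 1378.4 to 53249.4 in WT_2year livers and from 464.0 to 1627.7 in WT_2mon livers. No marker of the list was at 0 in every library.

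Lcn2, a marker chosen for mention after its values were seen because hepatocytes make it too, was a large part of those sums. Without it the sum of the other 16 markers ran from 1697.1 to 54141.8 in TG_2mon livers, from 288.4 to 4135.1 in WT_2year livers and from 258.4 to 820.6 in WT_2mon livers. All 6 TG_2mon libraries were above all WT_2mon libraries with and without Lcn2. Within TG_2mon, library 3, with the highest Cxcr2 (247.5) and Cxcl1 (8145.5), had the lowest sum of all 17 markers (11093.4). Without Lcn2 its sum was 8932.3, and libraries 1 and 2 were lowest, at 2137.2 and 1697.1. Those libraries were also lowest in TG_2mon for Cxcr2 (17.4 and 23.1), Ccr1 (16.9 and 21.2) and Cxcl1 (124.2 and 570.7). Library 4 had a sum of 9199.0 without Lcn2, with Cxcr2 at 35.1. Library 6 had a sum of 59369.6, or 29162.3 without Lcn2, with Cxcr2 at 62.6. Library 5 was highest in both sums, with Cxcr2 at 147.4, and had the highest Ccr1 (239.2). The part of these cells in the values of Cxcr2, Ccr1 and Cxcl1 was not tested.

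Markers of monocytes and recruited macrophages rose for 4 of 16 in TG_2mon against WT_2mon, with Chil3 (5.51 ± 0.85, adjusted p = 0.000792), F13a1 (3.24 ± 0.71, adjusted p = 0.0105) and Ace (1.94 ± 0.44, adjusted p = 0.0132) at the smallest p. Their summed level ran from 3630.7 to 21570.6 in TG_2mon livers, from 3682.3 to 8145.4 in WT_2year livers and from 2672.4 to 4287.9 in WT_2mon livers. Of the Kupffer cell markers 1 of 15 rose, the scavenger receptor Marco (3.97 ± 0.41, adjusted p = 3.85e-05). Of 14 T and NK cell markers none passed in limma, and 1 had an unadjusted p under 0.05. Erythroid markers rose for 4 of 8, and their sum reached 1592787.4 in TG_2mon library 6, which also held the highest TG_2mon value of 11 of the 33 chemokine and receptor genes (33.3%, against 24.6% of all genes). Of the 16 endothelial markers 2 rose and none fell, the scavenger receptor Stab2 (1.44 ± 0.27, adjusted p = 0.00406) and von Willebrand factor, Vwf (1.35 ± 0.35, adjusted p = 0.027), with sums of 8990.4 to 20445.4 in TG_2mon livers, 11107.9 to 12771.1 in WT_2year livers and 8116.0 to 11367.0 in WT_2mon livers. Of the 15 stellate cell and fibroblast markers 1 fell and none rose, the collagen Col1a1 (-1.88 ± 0.46, adjusted p = 0.02), with sums of 16951.2 to 29190.0 in TG_2mon livers, 10283.9 to 17019.8 in WT_2year livers and 12887.0 to 24575.8 in WT_2mon livers. None of the 6 platelet markers in the test passed in limma, and 2 had an unadjusted p under 0.05. Among all genes 2.89% rose and 3.83% fell. The part of these cells in the results was not tested. Hepatocyte markers were abundant in every library, with sums of 3284671.4 to 8007672.8 in TG_2mon livers, 3694248.5 to 6192811.2 in WT_2year livers and 4064715.2 to 5812932.5 in WT_2mon livers, and 1 of 15 fell in TG_2mon against WT_2mon (Serpina1c, of a family of near-identical genes, -1.80 ± 0.42, adjusted p = 0.0145).

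The other abundant ligands in the test, Ccl6 and Ccl9 of CCR1 and Cxcl12 of CXCR4, were not called over all libraries. Ccl6 was at 403.5, 758.1 and 1539.2 (lowest, median, highest) in TG_2mon livers, at 544.9, 701.6, 1050.6, 692.6 and 610.6 in WT_2year livers and at 121.4, 391.9 and 729.6 in WT_2mon livers. Its upper values were in TG_2mon and WT_2year, with overlap in both comparisons. The log2 fold change was 1.16 ± 0.38 for TG_2mon (adjusted p = 0.0791) and 0.98 ± 0.39 for WT_2year (adjusted p = 0.535), each against WT_2mon. Those 2 comparisons share the WT_2mon libraries. Ccl6 was called higher in TG_2mon than in WT_2mon once TG_2mon library 1 was left out, and the authors' deposited table called it too, at 1.11 (adjusted p = 0.0431).

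Ccl9 was at 1775.1, 3577.8 and 4581.1 in TG_2mon livers, at 2223.8, 1734.5, 1886.4, 3409.5 and 3712.1 in WT_2year livers and at 1342.9, 2703.2 and 4012.5 in WT_2mon livers. The 3 groups overlapped over most of their range, and the log2 fold changes against WT_2mon were 0.20 ± 0.21 for TG_2mon (adjusted p = 0.648) and -0.09 ± 0.21 for WT_2year (adjusted p = 0.901). Ccl3, a further ligand of CCR1, did not enter the test and reached at most 30.1.

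Cxcl12 was at 2245.3, 4558.3 and 8268.0 (lowest, median, highest) in TG_2mon livers, at 7866.8, 6642.6, 11247.5, 6870.3 and 5588.9 in WT_2year livers and at 3749.4, 6798.1 and 8508.5 in WT_2mon livers. TG_2mon livers reached lower values than the WT_2year livers, with 2 TG_2mon libraries inside the WT_2year range. TG_2mon against WT_2year gave a log2 fold change of -0.76 ± 0.26, which did not pass (adjusted p = 0.156). Against WT_2mon the values were -0.38 ± 0.25 for TG_2mon (adjusted p = 0.423) and 0.38 ± 0.26 for WT_2year (adjusted p = 0.65).

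Ackr3, the atypical receptor that takes up CXCL12 and CXCL11, was at 11.2, 35.4 and 111.2 in TG_2mon livers. It was at 24, 10.8, 7.23, 32.6 and 15.3 in WT_2year livers and at 10.4, 14.1 and 20.7 in WT_2mon livers. Of the 6 TG_2mon libraries, 4 lay above every WT_2mon library, and the test gave 1.30 ± 0.46 (adjusted p = 0.103). In the authors' deposited table Ackr3 was called higher, at 1.59 (adjusted p = 0.00513).

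**Figure D2:**
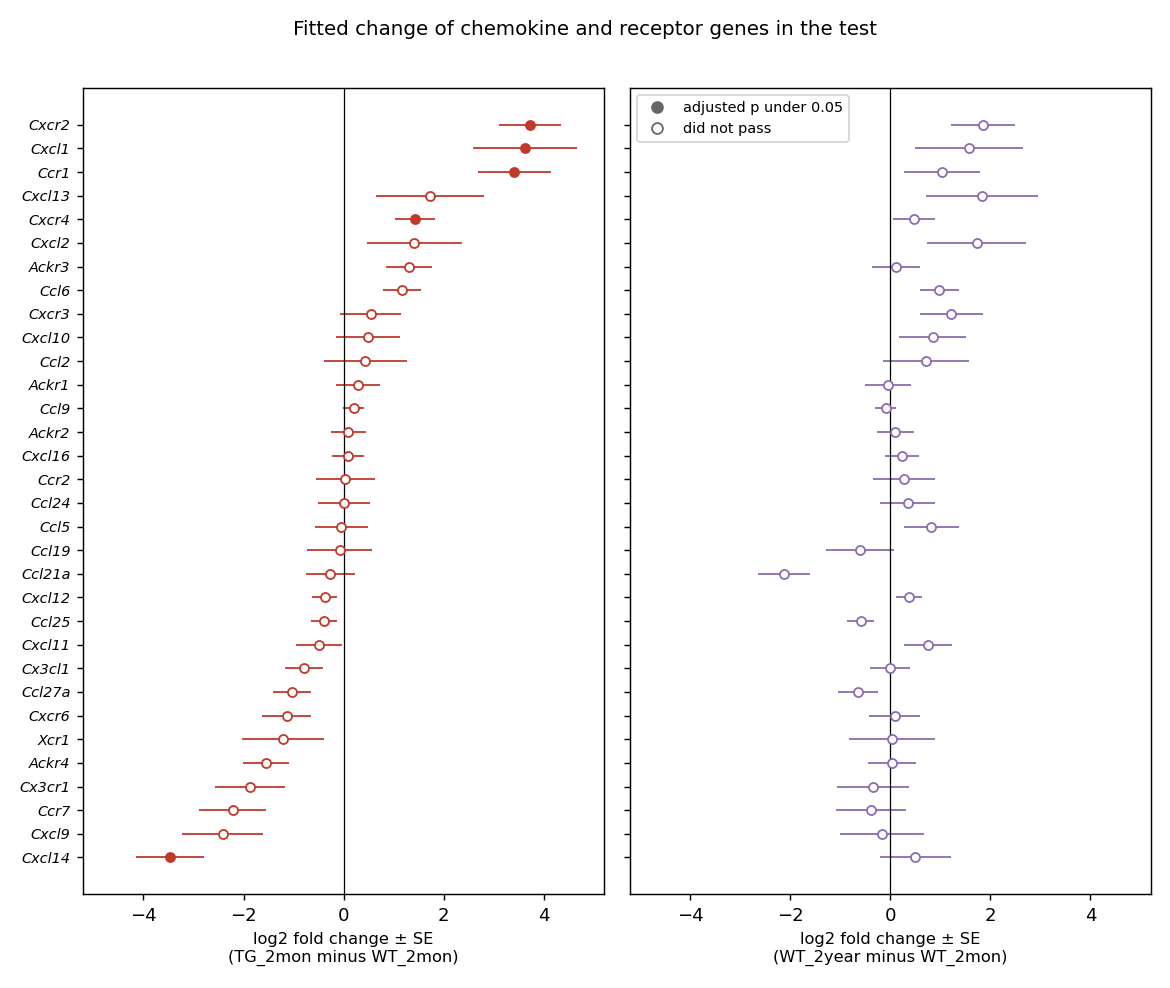
Fitted log2 fold change with its standard error for 32 of the genes in the test, on the left for TG_2mon minus WT_2mon and on the right for WT_2year minus WT_2mon, with filled points where the adjusted p was under 0.05. The 5 filled points are all on the left, from 3.72 for Cxcr2 to -3.47 for Cxcl14, and on the right the lowest point is Ccl21a at -2.12. The 2 panels share the WT_2mon libraries.

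CXCR3, the receptor of activated T cells and NK cells, has the interferon-induced ligands CXCL9, CXCL10 and CXCL11. Cxcl9 was at 12.1, 105.6 and 292.6 (lowest, median, highest) in TG_2mon livers, at 1099.2, 807.1, 322.0, 54 and 1256.7 in WT_2year livers and at 236.9, 598.2 and 1058.5 in WT_2mon livers. In TG_2mon, 4 of the 6 libraries were below the WT_2mon range. WT_2year library 4 was also below that range. TG_2mon against WT_2mon gave a log2 fold change of -2.42 ± 0.81, which did not pass (adjusted p = 0.0847), and WT_2year against WT_2mon gave -0.16 ± 0.84 (adjusted p = 0.962). The authors' deposited table called Cxcl9 lower in TG_2mon than in WT_2mon, at -2.01 (adjusted p = 0.00463).

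Cxcl10 was at 17.9, 66.4 and 151.4 in TG_2mon livers, at 74.5, 112.0, 57.2, 22.6 and 388.1 in WT_2year livers and at 23.3, 38.4 and 95.3 in WT_2mon livers. Cxcl11 is listed by the annotation as a polymorphic pseudogene, so a working CXCL11 protein cannot be taken for granted in these B6 mice. Its RNA was at 5.17, 26.6 and 73.9 in TG_2mon livers, at 41.6, 86.9, 53.1, 60.7 and 50.6 in WT_2year livers and at 21, 38.5 and 49.7 in WT_2mon livers. The receptor Cxcr3 itself was at 5.66, 9.63 and 21.6 in TG_2mon livers, at 15.9, 26.2, 17.5, 9.59 and 45 in WT_2year livers and at 1.31, 7.07 and 37.1 in WT_2mon livers. The groups overlapped for all 3 genes. None of the 3 passed against WT_2mon, with log2 fold changes of 0.48, -0.49 and 0.54 for TG_2mon and of 0.85, 0.76 and 1.22 for WT_2year in the same gene order.

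CCR7 and its ligands CCL19 and CCL21 bring dendritic cells and naive T cells into lymphoid tissue, and ACKR4 scavenges CCL19, CCL21 and CCL25. Ccr7 was at 0, 3.17 and 5.05 (lowest, median, highest) in TG_2mon livers, at 13, 21.5, 5.15, 1.69 and 39.9 in WT_2year livers and at 6.28, 13.6 and 23.6 in WT_2mon livers. Every TG_2mon library was below every WT_2mon library, as for 1.84% of all genes tested, and among the 33 genes in the test this held for Ccr7 alone. Ccr7 averaged under 10 in TG_2mon and entered the test through the wild-type groups. The fitted difference did not pass, at -2.22 ± 0.67 (adjusted p = 0.0572), and it was called lower in the fits without TG_2mon library 2 and, against WT_2year, without WT_2year library 4. The authors' deposited table called Ccr7 lower in TG_2mon than in WT_2mon, at -2.26 (adjusted p = 0.0272).

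Ackr4 was at 2.61, 10.2 and 33.7 in TG_2mon livers, at 51.4, 28.6, 39.7, 20.2 and 26.3 in WT_2year livers and at 19.3, 31.8 and 55.3 in WT_2mon livers. All TG_2mon libraries except library 1 were below both wild-type groups. The log2 fold change was -1.55 ± 0.46 for TG_2mon against WT_2mon (adjusted p = 0.0554) and -1.57 ± 0.49 for TG_2mon against WT_2year (adjusted p = 0.108), and both comparisons passed once TG_2mon library 1 was left out, the one against WT_2mon also without WT_2mon library 2. An exon of Ackr4 overlaps Acad11 on the other strand, and without a stated strand setting their reads cannot be told apart.

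Ccl21a was the gene of the family with the smallest p for age. It was at 33.3, 70 and 147.6 (lowest, median, highest) in TG_2mon livers, at 18.6, 48.8, 20.3, 6.85 and 17.6 in WT_2year livers and at 25.7, 87.1 and 232.3 in WT_2mon livers. Of the 5 WT_2year libraries, 4 were below every WT_2mon library. WT_2year against WT_2mon gave -2.12 ± 0.51, which did not pass (adjusted p = 0.133), and TG_2mon against WT_2year gave 1.85 ± 0.51 (adjusted p = 0.0684). In the authors' deposited table the age value of Ccl21a was -2.10 with an adjusted p of 0.0103. Ccl19 overlapped between all groups, at 5.73, 21.1 and 153.7 in TG_2mon livers, at 24.1, 56.4, 18.1, 3.31 and 26.9 in WT_2year livers and at 9.39, 28.9 and 49.8 in WT_2mon livers.

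**Figure D3:**
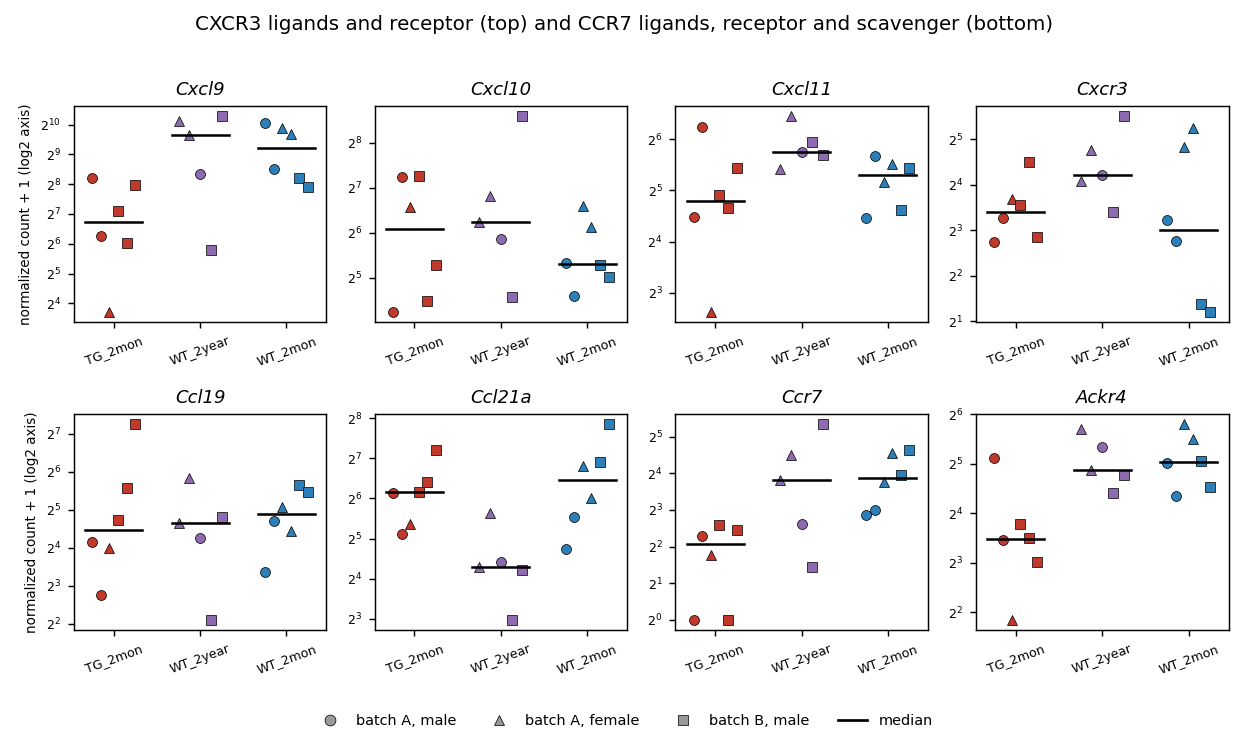
Normalized count plus 1 on a log2 axis for the CXCR3 ligands with their receptor (top row) and for the CCR7 ligands with their receptor and the scavenger ACKR4 (bottom row), 1 point per library, the marker giving batch and sex and the black line the median. Ccr7 in TG_2mon lies at or below 5.05 in all 6 libraries, 4 of the 5 WT_2year points of Ccl21a lie below the WT_2mon points, and Cxcl9 in TG_2mon has its median at 105.6 against 598.2 in WT_2mon.

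Values of T cell, B cell and dendritic cell markers stand beside these genes. Of 11 dendritic cell markers in the test, a list that itself holds Ccr7 and Xcr1, 1 fell in TG_2mon against WT_2mon, the class II gene H2-Ab1 (-2.65 ± 0.48, adjusted p = 0.00272). The summed dendritic cell markers ran from 704.3 to 1560.9 in TG_2mon livers, from 982.3 to 5824.5 in WT_2year livers and from 1360.3 to 2828.0 in WT_2mon livers. The summed T and NK cell markers ran from 250.3 to 618.0 in TG_2mon livers, from 203.1 to 1397.9 in WT_2year livers and from 283.9 to 604.4 in WT_2mon livers. Of 12 B and plasma cell markers, Ighm rose in TG_2mon and in WT_2year, each against WT_2mon, and Ighd fell in TG_2mon. Their part in the chemokine values was not tested.

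Among the receptors of other lymphocyte and monocyte ligands, Cxcr6, the receptor of CXCL16, was at 2.41, 7.62 and 16.1 in TG_2mon livers, at 13, 35.8, 21.6, 5.63 and 36.2 in WT_2year livers and at 9.26, 19.7 and 22.4 in WT_2mon livers. Its ligand Cxcl16, whose exons overlap Zmynd15 on the other strand, was at 176.7, 303.1 and 1448.2 in TG_2mon livers, at 235.3, 369.0, 288.7, 333.3 and 910.7 in WT_2year livers and at 162.3, 247.2 and 729.4 in WT_2mon livers. Both overlapped between groups. Neither passed, with log2 fold changes against WT_2mon of -1.14 ± 0.49 for Cxcr6 in TG_2mon (adjusted p = 0.19) and 0.08 ± 0.32 for Cxcl16 in TG_2mon (adjusted p = 0.925).

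Cx3cr1, the fractalkine receptor of patrolling monocytes and some macrophages, was at 0, 17 and 133.0 in TG_2mon livers, at 22, 28.8, 31.9, 20.7 and 66.9 in WT_2year livers and at 9.15, 29.7 and 140.4 in WT_2mon livers. Its ligand Cx3cl1 was at 4.62, 16.5 and 19.1 in TG_2mon livers, at 22.8, 29.7, 14.3, 22.8 and 26.2 in WT_2year livers and at 17.3, 22.7 and 28.7 in WT_2mon livers. TG_2mon against WT_2mon gave -1.87 ± 0.70 for Cx3cr1 (adjusted p = 0.125) and -0.79 ± 0.38 for Cx3cl1 (adjusted p = 0.246). Without TG_2mon library 6, Cx3cr1 was called lower. Cx3cr1 shares exon sequence with Gm33858 on the other strand.

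Ccr2, the receptor that draws inflammatory monocytes toward CCL2, had TG_2mon values that lay apart by batch. The 3 TG_2mon libraries of batch B were at 111.1, 303.8 and 211.2 and the 3 of batch A at 18.8, 20.9 and 9.9. The WT_2mon libraries were at 42.5 and 48.1 in batch B and at 30.1, 41.4, 68.4 and 54.3 in batch A, so the TG_2mon values were above the WT_2mon values in batch B and below them in batch A. The fitted log2 fold change over both batches was 0.03 ± 0.59 (adjusted p = 0.983). The test of the difference between batches, batch B minus batch A, gave 3.61 ± 0.78 with an adjusted p of 0.0569. None of the 33 genes passed that test in limma, where 0.5% of all genes did, and at an unadjusted p under 0.05 the count was 4 (12.1%, against 15.7% of all genes), the others being Ccl6, Cxcr3 and Ccl24.

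Ccl2, the ligand of CCR2, was at 1.49, 10.7 and 71.1 in TG_2mon livers, at 8.01, 20.2, 13.5, 2.94 and 206.9 in WT_2year livers and at 5.07, 8.43 and 24.6 in WT_2mon livers. WT_2year library 5 stood above all other libraries. That library held the highest WT_2year value for 17 of the 33 genes (51.5%, against 24.6% of all genes), among them Ccl5, Ccr2, Ccr7, Cxcl9, Cxcl10 and Cxcr3. Its T and NK cell marker sum of 1397.9 and its dendritic cell marker sum of 5824.5 were also the highest of the 17 libraries. The test gave 0.43 ± 0.83 for TG_2mon (adjusted p = 0.824) and 0.71 ± 0.86 for WT_2year (adjusted p = 0.791), each against WT_2mon.

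Ccl5, a ligand that draws T cells and other leukocytes, was at 23.2, 42.8 and 50 in TG_2mon livers, at 72.8, 138.7, 40.6, 29.4 and 309.8 in WT_2year livers and at 17.7, 41 and 110.1 in WT_2mon livers, with -0.05 ± 0.53 for TG_2mon against WT_2mon (adjusted p = 0.97).

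Cxcl13, the ligand that gathers B cells through CXCR5, was at 9.04, 264.6 and 1083.9 in TG_2mon livers, at 46.4, 43.6, 211.5, 379.0 and 444.7 in WT_2year livers and at 6.59, 57.5 and 118.6 in WT_2mon livers. The groups overlapped, and the log2 fold changes did not pass, at 1.72 ± 1.08 for TG_2mon (adjusted p = 0.396) and 1.83 ± 1.12 for WT_2year (adjusted p = 0.628), each against WT_2mon. The authors' deposited table called Cxcl13 higher in TG_2mon than in WT_2mon, at 2.86 (adjusted p = 0.0383). Cxcr5 did not enter the test and reached at most 19.4. Xcr1, a receptor of cross-presenting dendritic cells, was at 0, 6.35 and 8.4 in TG_2mon livers, at 16.1, 15.7, 17.6, 2.8 and 19.3 in WT_2year livers and at 0, 18.6 and 38.7 in WT_2mon livers, and it did not pass (-1.22 ± 0.82 for TG_2mon, adjusted p = 0.438).

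Of the other ligands, Ccl25, which attracts CCR9-bearing cells to the gut and is also made in liver, was at 66.6, 101.5 and 138.6 in TG_2mon livers, at 101.6, 95.4, 62.7, 56.1 and 111.5 in WT_2year livers and at 74.2, 113.1 and 208.5 in WT_2mon livers. WT_2year against WT_2mon gave -0.59 ± 0.27, which did not pass (adjusted p = 0.56). Ccl27a, whose exons overlap Il11ra1 on the other strand, was at 58.9, 160.1 and 475.8 in TG_2mon livers, at 214.7, 373.0, 89.3, 154.8 and 328.7 in WT_2year livers and at 131.9, 205.2 and 942.8 in WT_2mon livers. Its log2 fold change of -1.03 ± 0.38 in TG_2mon against WT_2mon did not pass (adjusted p = 0.124), while the authors' deposited table called Ccl27a lower, at -1.12 (adjusted p = 0.00288). Ccl24, Ackr1 and Ackr2 gave 0.01, 0.29 and 0.09 in that comparison, with overlapping groups.

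Ccl22 and its fellow low-level gene Ccr9 did not reach the level needed for the test. Ccl22, a dendritic cell ligand of CCR4, was at 0, 0.256 and 0.816 in TG_2mon livers, at 3.65, 12, 0.942, 0.515 and 20.5 in WT_2year livers and at 2.12, 10.6 and 19.2 in WT_2mon livers. All 6 TG_2mon libraries were below all 6 WT_2mon libraries. Ccr9, the CCL25 receptor, was at 0 in 4 of the 6 TG_2mon libraries and at most 6.83, at 2.19, 7.88, 1.47, 1.23 and 11.7 in WT_2year livers and between 1.54 and 35.4 in WT_2mon livers. With genes averaging at least 1 in the fit, both were called lower in TG_2mon than in WT_2mon, and the authors' deposited table gave log2 fold changes of -4.52 for Ccl22 (adjusted p = 0.000255) and -3.83 for Ccr9 (adjusted p = 0.00634). Ccr9 shares exon sequence with Gm17200 on the same strand and with Slc6a20a on the other, so its counts are uncertain.

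Between 2 years and 2 months of age in wild-type liver, none of the 33 genes passed the test in limma, where 0.144% of all genes did. At an unadjusted p under 0.05 there were 4 (12.1%, against 8.73% of all genes): Ccl6 and Cxcr2 on the higher side, where 4.56% of all genes were, and Ccl21a and Ccl25 on the lower side, where 4.17% were. No gene of the family separated the 2 groups without overlap, which 0.35% of all genes did on the higher and 0.26% on the lower side. The authors' deposited table called 2 of its 41 genes of the family for age, Ccl21a and Ccl6 (1.01, adjusted p = 0.0345), where it called 1.77% of its 15814 genes. Fitted values lay above 0 for 8 of the 9 CXC ligands, with a median of 0.76, and for 4 of the 9 CC ligands, with a median of -0.09. They also lay above 0 for 8 of the 10 receptors (median 0.21) and 3 of the 4 atypical receptors (median 0.06). In all, 23 of the 33 genes lay above 0, against 7257 of all 14588 genes, whose median was -0.00. The difference of the age effect between batches passed for none of the 33 genes in limma, where 0.0206% of all genes did, and 8 had an unadjusted p under 0.05 (24.2%, against 22.5%).

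Transgenic against 2-year-old wild-type liver gave 1 call of 33 (3.03%), the fall of Cxcl14, where 2.55% of all genes passed and 1.84% did so on the lower side. Cxcl14 was also the single gene of the family whose TG_2mon values all lay below the WT_2year values, as they did for 1.14% of all genes. At an unadjusted p under 0.05 there were 12 (36.4%, against 15.3% of all genes), 5 on the higher side (15.2%, against 6.5%) and 7 on the lower (21.2%, against 8.82%). Among the 7, Ccr7 and Cxcr6 averaged under 10 in TG_2mon and entered the test through the wild-type groups. Cxcr2 and Ccr1, among the 5, averaged under 10 in WT_2mon and entered through the groups in which they were higher. Fitted values lay below 0 for 8 of the 9 CXC ligands and for 7 of the 10 receptors, with medians of -0.37 and -0.68 against 0.02 over all genes. Those 7 receptors include Ccr7, Cxcr6 and Xcr1, which all entered through the wild-type groups. Without WT_2year library 4, Ccr7, Cxcl9 and Cxcr6 were called lower as well, making 4. Single genes were called higher in 1 fit each: Ccl21a without WT_2year library 2, Cxcl1 without WT_2year library 3 and Cxcr4 without TG_2mon library 1, which also called Ackr4 lower.

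By role, 3 of the 10 receptors in the test rose in TG_2mon against WT_2mon and none fell, with 5 fitted above and 5 below 0, where 2.89% of all genes rose and 3.83% fell. Among those 3, Cxcr2 and Ccr1 had entered the test through the groups in which they were higher. Of the 9 CXC ligands 1 rose and 1 fell, and of the 9 CC ligands and 4 atypical receptors none passed in limma. The median log2 fold change of the 33 genes was 0.01, and that of all genes tested was 0.01 as well. Rescaling libraries to equal totals moved the median of all genes to 0.13 for the transgene and for age and left the direct comparison at 0.02.

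**Figure D4:**
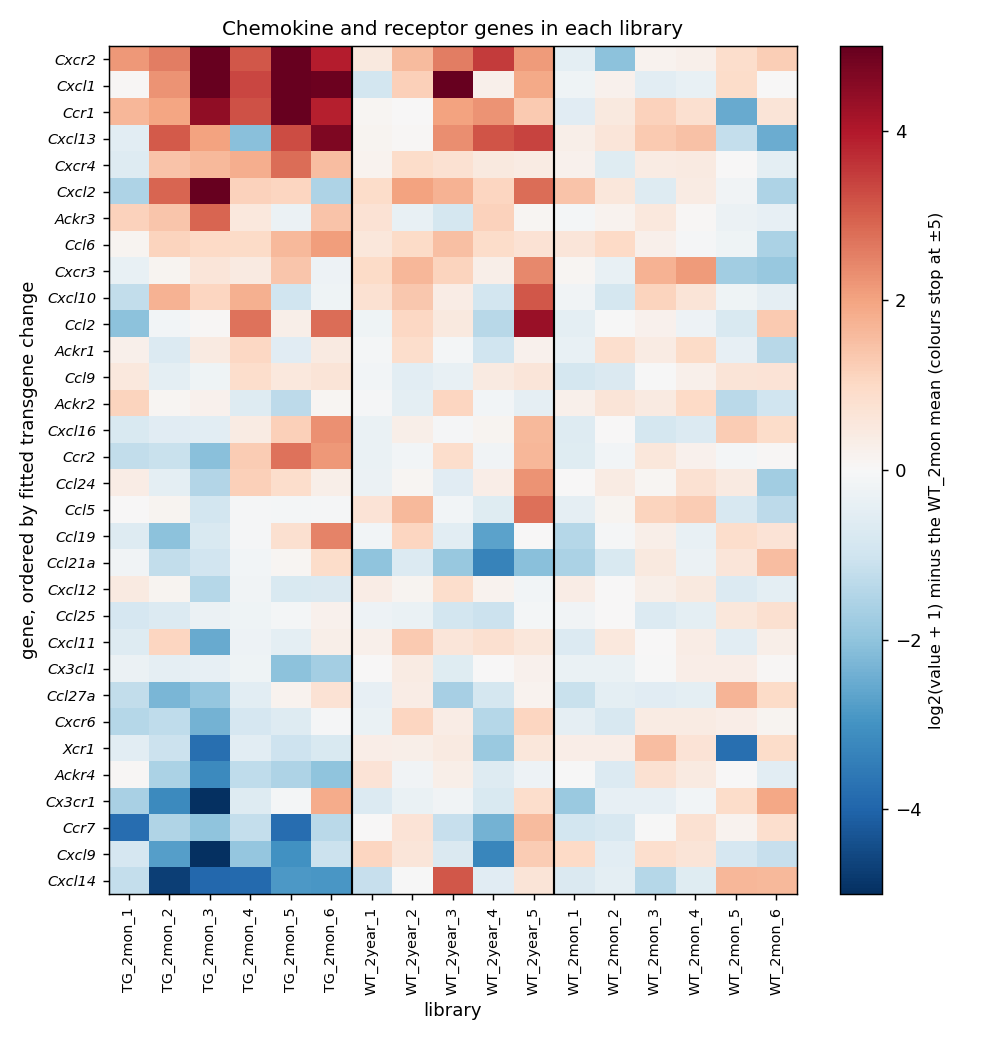
Colour gives log2(value + 1) minus the WT_2mon mean for 32 of the genes in the test (rows, ordered by the fitted difference of TG_2mon from WT_2mon) in each of the 17 libraries (columns, with black lines between groups), and colours stop at 5 in each direction. Cxcr2, Cxcl1 and Ccr1 at the top are red in TG_2mon, except Cxcl1 in library 1, at 124.2 within the WT_2mon range of 82.6 to 228.6. Cxcl14 at the bottom is blue there, and WT_2year library 5 is the column with the highest WT_2year value for 17 of the 33 genes.

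Genes that work around chemokines were taken from lists, and their counts stand beside 6.71% of all genes called in TG_2mon against WT_2mon, 2.89% higher and 3.83% lower. Of 30 genes of receptor signalling, 2 rose in TG_2mon against WT_2mon and none fell (median log2 fold change 0.48): Rgs2 (2.03 ± 0.36, adjusted p = 0.00252) and Rgs18 (2.28 ± 0.64, adjusted p = 0.04), which shorten G-protein signals. Of 21 inducers of chemokines 3 rose and none fell (median 0.64). They were Nfkbiz, an NF-kappaB cofactor (2.18 ± 0.44, adjusted p = 0.0066), Tnfaip3, a feedback inhibitor of NF-kappaB (2.87 ± 0.61, adjusted p = 0.0085), and Il17ra, a receptor of interleukin 17 (1.12 ± 0.28, adjusted p = 0.0258). Of 17 adhesion genes 2 rose and none fell (median 0.55), the endothelial ligand Icam1 (1.63 ± 0.30, adjusted p = 0.00323) and its leukocyte integrin partner Itgam (1.97 ± 0.51, adjusted p = 0.0284).

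Of 13 proteases that can cut chemokines, 3 rose and none fell (median 0.12): Mmp8, Mmp9 (161.8 ± 130.5 in TG_2mon livers and 12.9 ± 9.12 in WT_2mon livers, mean ± SD, n = 6 each, adjusted p = 0.0224 in limma) and Mmp14 (0.94 ± 0.24, adjusted p = 0.0275). Mmp8 and Mmp9 are also in the neutrophil list, and Itgam is in the monocyte list. Of 11 chemokine-like genes outside the family rule, Cmtm6, a membrane protein of the CKLF-like family, fell in TG_2mon against WT_2mon (-1.01 ± 0.19, adjusted p = 0.00342) and against WT_2year (-0.84 ± 0.20, adjusted p = 0.0331). Ppbp, a platelet chemokine, fell in TG_2mon against WT_2year (-2.17 ± 0.50, adjusted p = 0.0288). None of these 5 lists had a call for age in limma, where 4, 3, 4, 3 and 1 genes had an unadjusted p under 0.05 in the order given, against 8.73% of all genes.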

How the data were processed

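Polyadenylated RNA from 17 mouse liver libraries was sequenced. The submitters' processing notes name the tools STAR (2.5.3a), Salmon (0.6.0) and DESeq2 and the build mm10. No annotation release or strand setting is given in the sources used here. Deposited by the authors were normalized counts per gene (a signal, summing to 28077001 to 44543936 per library) and 2 comparison tables. Per the file headers, those tables give log2 fold changes with standard errors, a score for the test, and each p-value. Whole reads could not be recovered from the low values, so no count model was run and depth is unknown.

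The fits used limma (version 3.58.1, R 4.3.3, eBayes with trend) on log2(value + 1) for the 14588 genes with a mean of at least 10, with group, batch and sex as terms. Calls needed an adjusted p (Benjamini-Hochberg, two-sided, over all genes tested) under 0.05. The procedure was tested on simulated data. The added 1 makes fold changes of low genes smaller than they are, and ± is the standard error unless said otherwise. No libraries were duplicates, with correlations up to 0.9847. Coordinates, exon overlaps and 3′ UTRs are those of GENCODE M21 (GRCm38). Alternatives were other pseudocounts, filters, scalings and terms, subsets of libraries, each library left out, and the authors' tables.

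The genes, lists and tests were chosen with earlier results of these data known. Named were every called gene of the family, the 5 with the smallest p per comparison and the 5 highest, others by level, and, from each list, at most the 3 called genes with the smallest p per comparison. 1 gene of the family is counted in the totals and not reported here.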

Additional observations from a re-analysis of the deposited data

Results flagged for a closer look

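Single libraries far from the rest of their group were looked for in 34 genes of the family and 3 groups, by the ratio of the gap to the group's range. Of 102 combinations 21 had one. The limit set on that ratio gives about 1 in 20 by chance only where values are normally distributed. The ratios were taken on normalized counts, not on the log2 scale of the fits, and the genes share the same libraries. No excess over chance can therefore be read from the 21.

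In TG_2mon library 1, Cxcl14 was at 38.2, where the other 5 TG_2mon libraries lay between 2.35 and 11.2 (ratio 0.751), and Ackr4 was at 33.7, with the others between 2.61 and 12.8 (ratio 0.671). In TG_2mon library 3, the only female of that group, Ackr3 was at 111.2 (others 11.2 to 40.1) and Cxcl2 at 105.2 (others 0 to 21.1). In the same library Ccl5 was low at 23.2 (others 42 to 50) and Xcr1 was listed at 0 (others 5.5 to 8.4). In TG_2mon library 6, Cxcl13 was at 1083.9 (others 9.04 to 408.5), Cx3cr1 at 133.0 (others 0 to 33.5), Ccl19 at 153.7 (others 5.73 to 46.9) and Ccr9 at 6.83 (others 0 to 0.84).

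In WT_2year library 3, Cxcl14 was at 756.9, with the other 4 between 38.8 and 135.9 (ratio 0.865), Cxcl1 was at 5958.6, with the others between 63 and 444.6 (ratio 0.935), and Ackr2 was at 91.8 (others 30 to 41). The Lcn2 value of that library, 49114.3, was the highest of the WT_2year group, and its part was not tested. In WT_2year library 5, Ccl2 was at 206.9 (others 2.94 to 20.2), Ccl24 at 398.5 (others 55.9 to 104.3), Cxcl10 at 388.1 (others 22.6 to 112.0), Cxcl16 at 910.7 (others 235.3 to 369.0) and Cx3cr1 at 66.9 (others 20.7 to 31.9). In WT_2year library 4, Xcr1 was low at 2.8 (others 15.7 to 19.3).

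In WT_2mon, Ccl2 was at 24.6 in library 6 (others 5.07 to 10.9) and Ccr9 at 35.4 in library 5 (others 1.54 to 11.4).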

How the results depend on the processing

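Cxcr2, Ccr1, Cxcr4, Cxcl1 and Cxcl14 kept their direction in TG_2mon against WT_2mon under every alternative run. Calls in that comparison (4 higher, 1 lower) became 3 lower with genes averaging at least 1, and 2 higher and 3 lower with no filter. They became 2 higher with no batch or sex term, 2 higher in males, 1 higher and 0 lower in batch A, and 1 higher in batch B. With only the 2 groups fitted, 4 were lower (Ccl27a, Ccr7, Cxcl14, Cxcl9). The 4 higher in that fit were Ackr3, Ccr1, Cxcl1 and Cxcr2, while Cxcr4 did not pass in limma (adjusted p = 0.0501). The authors' deposited tables called 7 higher (Ackr3, Ccl6, Ccr1, Cxcl1, Cxcl13, Cxcr2, Cxcr4) and 6 lower (Ccl22, Ccl27a, Ccr7, Ccr9, Cxcl14, Cxcl9) of 38 for the transgene, where 14.1% of their 15714 genes were called, and 1 higher (Ccl6) and 1 lower (Ccl21a) for age, where 1.77% were. The lower call of TG_2mon against WT_2year became 0 in males, in batch A and in batch B. With equal upper quartiles, 1 gene (Ccr2) passed the difference of the transgene effect between batches. The cause of these changes was not tested, except that subsets hold fewer libraries. Leaving out 1 library gave 2 to 5 higher and 1 to 2 lower for TG_2mon against WT_2mon, 0 to 1 higher and 1 to 4 lower for TG_2mon against WT_2year, 0 to 0 for age and its difference between batches, and 0 to 1 higher and 0 to 0 lower for the transgene difference between batches. With a replicate block, 3 were higher (Ccr1, Cxcl1, Cxcr2) and 1 lower in TG_2mon against WT_2mon, and Cxcr4 had an adjusted p of 0.085. Libraries of equal number had correlated deviations over 0.1 in 5 of 6 pairs for that comparison (-0.22 to 0.59) and in 4 of 5 pairs for each of the other 2. Within a batch, TG_2mon and WT_2mon libraries of unequal number correlated too, from 0.16 (libraries 3 and 2) to 0.60 (libraries 6 and 5). The equal-number pair at -0.22 was of different batches. The numbers were therefore not taken to pair libraries. Depth is unknown, which limits what can be said of genes listed at 0.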
